A study of Mus musculus with 2 samples.

Results

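Glomerular endothelial cells line the capillaries of the kidney's filtering units, and were sought here in single-cell RNA of injured mouse kidneys. Barcodes counted as cells when they held 500 or more unique molecular identifiers (UMIs, single counted transcripts) from 200 or more genes, no more than 50% of them mitochondrial. It was endothelial with at least 3 UMIs over Cdh5, Pecam1, Egfl7 and Emcn and no UMI of Ptprc or Pdgfrb, and a member with at least 2 UMIs of Ehd3 as well. The rule found 40 members among 523 endothelial and 9452 kept cells of the control library. In the haplodeficient library it found 99 among 889 endothelial and 10026 kept cells, so 139 of 19478 cells were members in all. Ehd3 and the 4 endothelial genes chose the cells, and their levels below are a description of that choice.

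Both libraries came from kidneys taken on day 14 after ischaemia and reperfusion of a kidney on 1 side, and the mice of both groups had received 4 tamoxifen injections. Control mice carried no Cre. Haplodeficient mice carried 1 floxed allele of Phd3 (Egln3, an oxygen-using prolyl hydroxylase that marks hypoxia-inducible factors) with Cdh5-CreERT2, a Cre that tamoxifen activates and that the promoter of an endothelial cadherin gene drives, so that all endothelial cells of these mice, not the glomerular ones alone, were its target. The labels do not state whether control mice carried the floxed allele or how many animals went into a library. As each group is a single library, the groups could not be tested against each other, the differences below lack a check by replicates, and every interval given is a 95% interval for counting error only.

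The glomerular capillary is a fenestrated endothelium that filters plasma together with the podocytes and the basement membrane both cell types share. Podocytes secrete VEGF-A, which the endothelial cells receive through the receptor VEGFR2 (Kdr), and this signal keeps the fenestrae and the cells themselves in place. In mouse kidney, Ehd3 (a membrane-shaping ATPase of the endocytic pathway) and the transcription factors Gata5 and Tbx3 are known markers of these cells, whereas Plvap, the protein of fenestral diaphragms, marks the capillaries around the tubules, since most glomerular fenestrae have none.

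Ehd3 (ENSMUSG00000024065) is a protein-coding gene that GENCODE M21 places on chromosome 17, plus strand, from 73804134 to 73832094 (GRCm38). Control members held 462 Ehd3 UMIs and haplodeficient members 1104, with medians of 4.5 and 5 per member and highest values of 63 and 115. They made up 7.65% (5.52 to 10.3) of the endothelial cells of the control and 11.1% (9.14 to 13.4) of those of the haplodeficient library, and these intervals overlapped. Because a minimum in UMIs depends on depth, every endothelial cell was also thinned to 1000 UMIs. An Ehd3 UMI then remained in 6.27% of 510 control cells (4.33 to 8.74) and 8.82% of 873 haplodeficient cells (7.02 to 10.9), against 19.9% and 24.6% unthinned. In cells with 2 or more Ptprc UMIs, leukocytes that should lack the gene, the thinned shares were 1.23% and 1.41%, and the unthinned ones 4.07% and 5.45% at median depths of 6525.5 and 4816 UMIs. Control members had a median of 8955.5 UMIs and haplodeficient members 7897, and the other endothelial cells 7784 and 4526.5. The members' UMIs summed to 477972 and 1060507. No member's barcode occurred in both libraries, although 28 barcodes of kept cells did.

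The labelled cell type was checked against marker genes that the rule had not used, across the members' own Ehd3 counts. The members just inside the threshold, with 2 Ehd3 UMIs (14 control and 24 haplodeficient cells), had Plat, the tissue plasminogen activator, at 196 (142 to 264) and 145 (103 to 197) CPM (the gene's UMIs over all UMIs of those cells, scaled to the usual constant). The cells just outside it, with 1 Ehd3 UMI (64 and 120 cells), had 215 (187 to 247) and 252 (226 to 281) CPM, and those with none 188 and 216 CPM. Plat was thus no higher just inside the threshold than outside it in either library. In members with 3 to 4 Ehd3 UMIs (6 and 20 cells) Plat was at 1582 and 551 CPM, with 5 to 9 (8 and 23 cells) at 1355 and 1421 CPM, and with 10 or more (12 and 32 cells) at 3178 (2904 to 3472) and 2029 (1898 to 2166) CPM. Kdr went from 114 and 318 CPM in members with 2 Ehd3 UMIs to 2132 and 1850.4 CPM in those with 10 or more. Igfbp5, a secreted binding protein of insulin-like growth factors, went likewise from 291 and 629 to 3540.2 and 2633 CPM. Kdr and Igfbp5 are not among the markers fixed for glomerular endothelium. Tbx3, which is, went from 50.1 and 46.98 to 419.9 and 332 CPM. Sema5a, also fixed, did not follow this course in the control library. It was at 193 CPM (181 to 205) with no Ehd3 UMI, 72.9 with 2 and 245 (174 to 337) with 10 or more.

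Plvap, the marker of the other capillaries, followed another course. It was at 524 and 925 CPM in members with 2 Ehd3 UMIs and at 6.46 and 115 CPM in those with 10 or more, where the control library held 1 Plvap UMI. Its haplodeficient level was highest with 3 to 4 Ehd3 UMIs, at 1717 CPM. Gata5, a marker given with the cell type, had 16 UMIs in 7 of the 12 control members with 10 or more Ehd3 UMIs and none in the other 28. In the haplodeficient library 16 of its 25 UMIs lay in that stratum, and the 24 members with 2 Ehd3 UMIs held 2. In the 8 control members with 5 to 9 Ehd3 UMIs Plvap was at 244 CPM (139 to 396), from 3 cells. Control cells with no Ehd3 UMI had 169 CPM and those with 1 had 224 CPM. As a group, the markers therefore upheld the label in members with 5 or more Ehd3 UMIs (20 control and 55 haplodeficient cells). Plvap and Gata5 did not uphold it in the control members with 5 to 9. Against the label, members with 2 had Plat no higher and Plvap no lower than cells with 1. They are called members by the rule only. Other fixed markers were mixed. Ptprb, an endothelial phosphatase, was at 902 CPM (781 to 1037) in control members with 2, against 563 (516 to 614) with 1. Among haplodeficient cells it was at 560 against 715 CPM. Hecw2, a ubiquitin ligase, was at 86.5 (52.1 to 135) against 42.0 (29.9 to 57.4) CPM in control cells. Its haplodeficient levels were 101 and 107 CPM. No verdict is given for members with 3 to 4, where Plvap was at 0 CPM in control and 1717 CPM in haplodeficient cells.

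**Figure D1:**
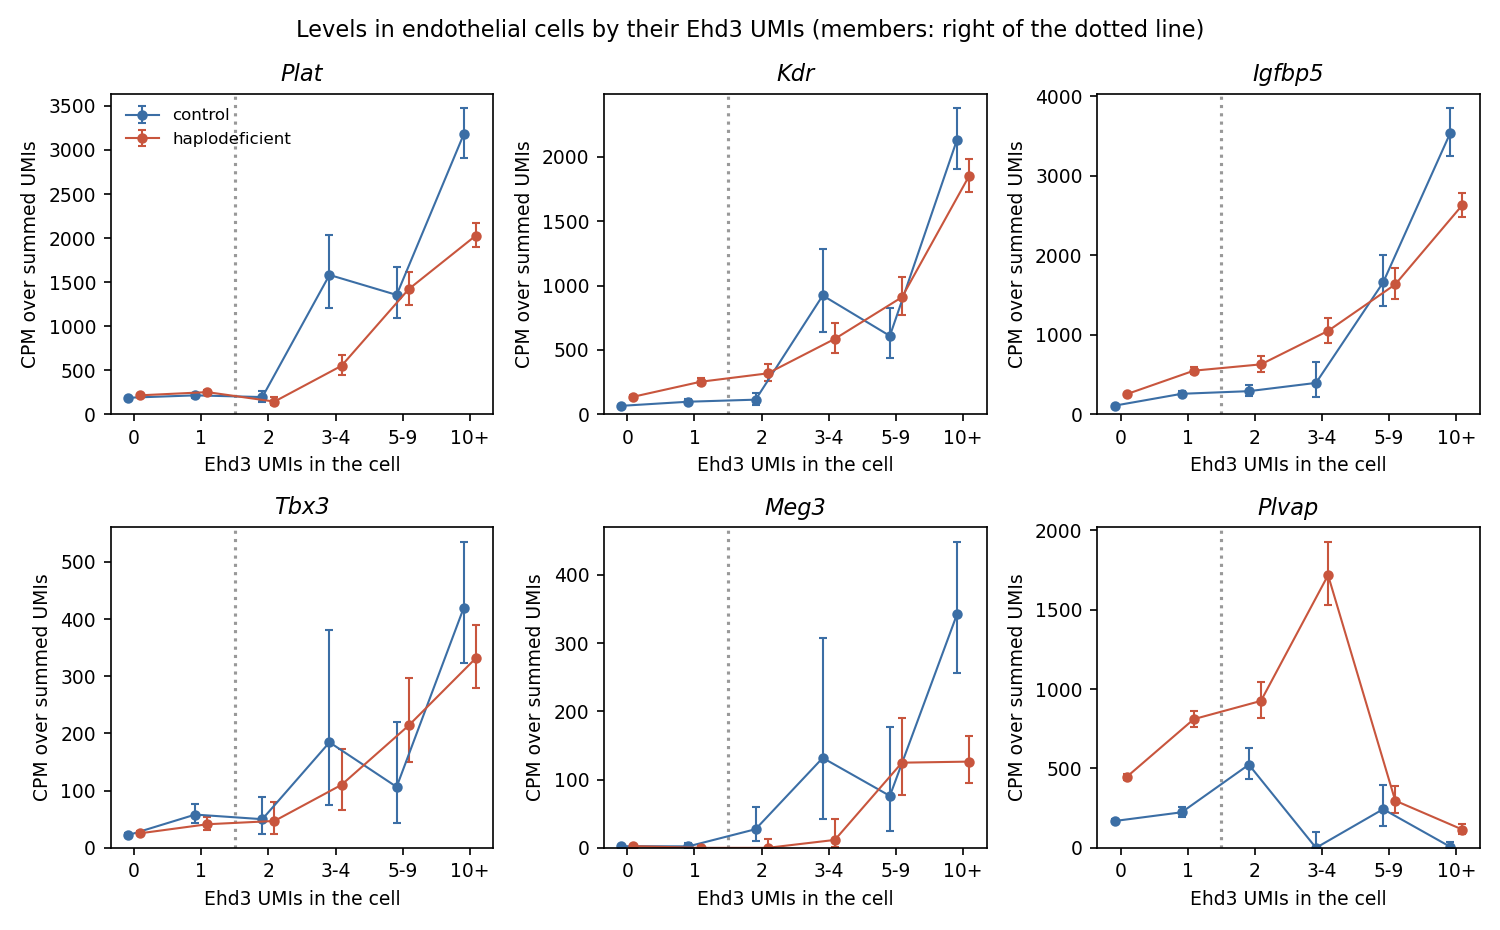
Level of 6 genes (CPM over the summed UMIs of each stratum, y axes) in endothelial cells grouped by their Ehd3 UMIs (x axis), in the control (blue) and haplodeficient (red) library, with exact Poisson 95% intervals. Cells right of the dotted line are members. Plat stays at 145 to 252 CPM up to 2 Ehd3 UMIs in both libraries and reaches 3178 and 2029 CPM at 10 or more, while Plvap falls to 6.46 and 115 CPM.

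Single members showed the same split. At least 2 Plvap UMIs were found in 10 of the 14 control and 18 of the 24 haplodeficient members with 2 Ehd3 UMIs (71.4%, 41.9 to 91.6, and 75%, 53.3 to 90.2). Of the members with 5 or more Ehd3 UMIs, 3 of 20 (15%, 3.21 to 37.9) and 8 of 55 (14.5%, 6.50 to 26.7) had as many. A Plat UMI was found in 11 of 12 control and 31 of 32 haplodeficient members with 10 or more Ehd3 UMIs, but in 9 of 14 and 12 of 24 with 2. At least 2 UMIs over the arterial genes Gja5, Sox17 and Fbln5 were found in 16 of 40 control (40%) and 33 of 99 haplodeficient members (33.3%). Gja5, the connexin of arterioles, had 10 UMIs in 3 of the 12 control and 30 in 7 of the 32 haplodeficient members with the most Ehd3, so some Ehd3-rich cells carried an arteriolar gene. Scrublet scores marked 3 control and 13 haplodeficient members as likely doublets.

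**Figure D2:**
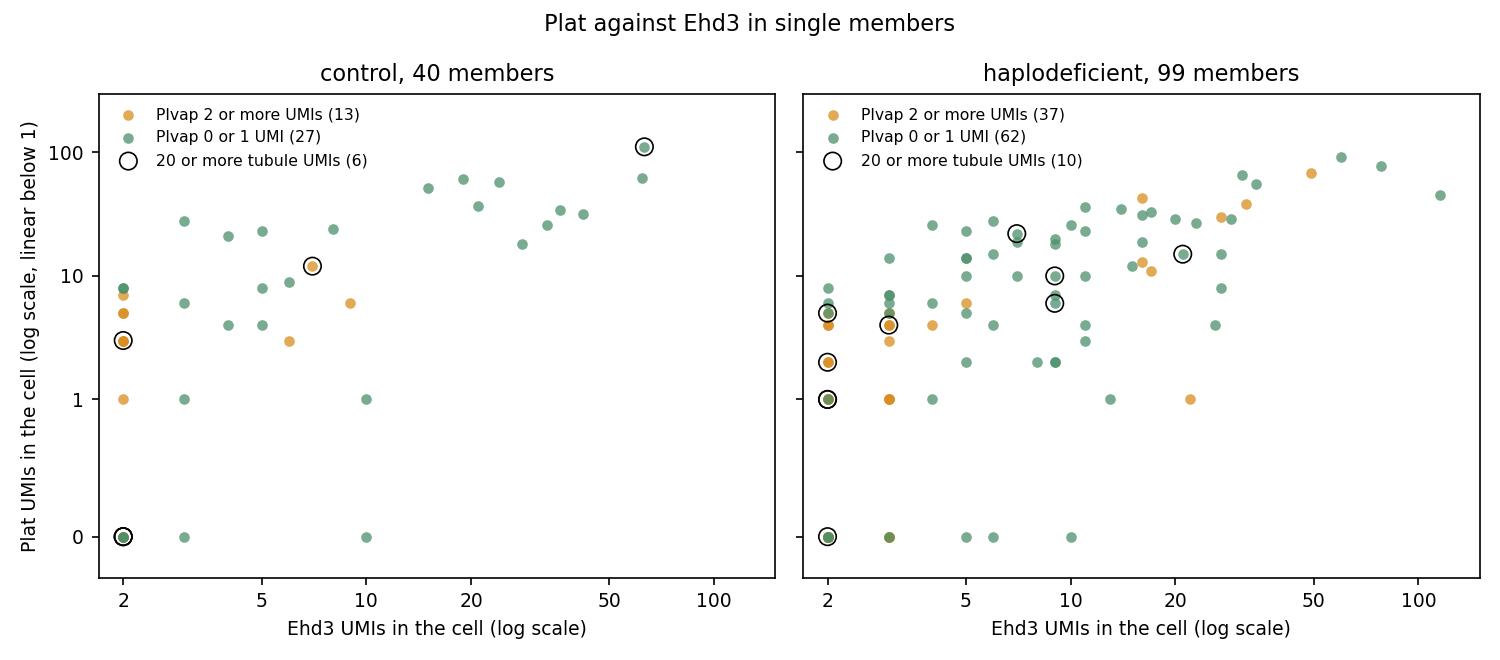
Plat UMIs (y axis, log scale, linear below 1) against Ehd3 UMIs (x axis, log scale) in each of the 40 control and 99 haplodeficient members. Orange points have 2 or more Plvap UMIs (13 and 37 cells). They gather at 2 Ehd3 UMIs in the control library, with none at 3 to 4, and at 2 to 4 in the haplodeficient library. Black rings mark the 6 and 10 members with 20 or more UMIs over the tubule marker lists.

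Meg3, the last of the markers given with the cell type and a long noncoding RNA of the maternally expressed Dlk1-Dio3 imprinted cluster, came from few members. It had 69 UMIs in 10 of 40 control and 79 UMIs in 12 of 99 haplodeficient members, or 144 CPM (112 to 183) and 74.5 CPM (58.98 to 92.8), against 2.35 and 2.004 CPM in the other endothelial cells. In the members with the gene, the median was 5 and 3.5 UMIs and the highest value 19 and 25. Rian, the next noncoding RNA of the same cluster, was found in 6 of the 10 control members with Meg3 and in 1 of the 30 without it, and in 7 of 12 and 2 of 87 haplodeficient members. The members with Meg3 were deeper, with medians of 12393.5 against 6347 UMIs in the control and 10957 against 7822 in the haplodeficient library, and had more Ehd3, with medians of 30.5 against 3 and 15 against 5 UMIs. The part of depth in this split was not tested. Gata5 UMIs were found in 5 of the 10 control members with Meg3 and 2 of the 30 without it, and in 6 of 12 and 12 of 87 haplodeficient members. Meg3 was thus found in a minority of members in both libraries.

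Members were next set against the other endothelial cells of their own library (483 control and 790 haplodeficient cells). This contrast follows from the rule and was not tested. Genes entered the comparison when the profiles averaged 50 CPM or more and held 30 or more UMIs together, and are called eligible. A gene was called where the log2 ratio of CPM + 5 reached 1 (a 2-fold difference), the exact Poisson intervals stayed apart, and both held in the same direction in each library. Of 3956 eligible genes, 107 (2.7%) were called higher and 58 (1.47%) lower in members. After Ehd3, the 15 with the highest smaller ratio of the libraries were Meg3, Kdr, Cd300lg, Gpihbp1, Tbx3, Igfbp5, Hecw2, Plat, Piezo2, Nrp1, Fgf1, Emcn, Tmem204, Gimap4 and Dlc1. Emcn, endomucin, was used by the rule.

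Of the markers fixed for glomerular endothelium, 9 were eligible without those of the rule. Among these 7 were called higher, where 2.7% of all eligible genes were. The 7 were Meg3, Tbx3, Plat, Hecw2, Nostrin, Mapt and Cyp26b1. Plat stood at 1431 CPM (1326 to 1542) against 192 in the control library and at 1200.4 CPM (1135 to 1268) against 222 in the haplodeficient one. Tbx3, a T-box transcription factor, stood at 188 against 27.4 and 203 against 28.2 CPM. Hecw2, a ubiquitin ligase, stood at 333 against 40.4 and 401 against 70.5 CPM. Nostrin, a trafficking protein of endothelial nitric oxide synthase, stood at 142 against 29.6 and 206 against 64.5 CPM. Ptprb, the endothelial phosphatase that acts on Tie2, had log2 ratios of 1.37 and 0.63 and was not called, nor was Sema5a with -0.01 and -0.16. Smad6, an inhibitor of BMP signalling, was below the level minimum at 0.72 and 1.07. Gata5 was below it too, with 16 UMIs in 7 control and 25 in 18 haplodeficient members, against 0 and 3 UMIs in all other endothelial cells.

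Receptors of VEGF were among the highest ratios. Of that list 3 of 6 eligible genes were called higher, where 2.7% of all eligible genes were. Kdr stood at 899.6 CPM (817 to 989) in control members against 70.6 in the other endothelial cells, and at 1096 CPM (1034 to 1161) against 157 in the haplodeficient library. Nrp1, the neuropilin that pairs with VEGFR2, stood at 1008 against 179 and 993 against 242 CPM. Flt4 (VEGFR3) was called higher as well, at log2 ratios of 1.20 and 1.15. Flt1 (VEGFR1), which captures VEGF, had 1.61 and 0.71 and passed 2-fold in the control library alone, as did the Tie receptor gene Tek with 1.20 and 0.79, so neither was called. Eng, the TGF-beta co-receptor endoglin, was called in both libraries at 1.90 and 1.07, and was the only one of 11 eligible BMP and TGF-beta genes that was.

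The promoters of the Ehd3, Kdr and Meg3 genes are shown because these genes chose or led the members, and because the ETS factor gene Fli1, which encodes a binder of GGAA cores in endothelial promoters, was called higher in members (337 against 106 CPM in the control, 378 against 140.4 in the haplodeficient library). Each sequence is the 250 bases before a RefSeq transcript start in GRCm38.p6, read 5′ to 3′ on the gene's strand, with the 6-base ETS cores CCGGAA and CAGGAA and the GATA motif AGATAA, or their reverse complements, in capitals.
Ehd3, chr17:73804591-73804840, plus strand: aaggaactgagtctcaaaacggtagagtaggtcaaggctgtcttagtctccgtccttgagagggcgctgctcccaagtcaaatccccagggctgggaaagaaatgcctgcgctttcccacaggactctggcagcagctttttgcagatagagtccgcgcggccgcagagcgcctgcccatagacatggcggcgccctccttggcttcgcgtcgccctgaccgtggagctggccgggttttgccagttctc
Kdr, chr5:75978456-75978705, minus strand: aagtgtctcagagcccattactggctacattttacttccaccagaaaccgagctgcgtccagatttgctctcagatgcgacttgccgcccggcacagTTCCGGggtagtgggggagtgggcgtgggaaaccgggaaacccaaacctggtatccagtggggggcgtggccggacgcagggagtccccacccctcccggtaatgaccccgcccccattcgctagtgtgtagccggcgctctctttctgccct
Meg3, chr12:109540746-109540995, plus strand: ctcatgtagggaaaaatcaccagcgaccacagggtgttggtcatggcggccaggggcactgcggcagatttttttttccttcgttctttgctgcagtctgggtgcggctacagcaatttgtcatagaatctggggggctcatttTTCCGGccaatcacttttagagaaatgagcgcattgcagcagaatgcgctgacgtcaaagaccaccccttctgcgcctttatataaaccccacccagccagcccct
The Kdr and Meg3 sequences each held 1 ETS core, written TTCCGG on the strand shown, and none of the 3 held AGATAA. A second Meg3 promoter, which starts at 109545148, and those of Gata5, Igfbp5 and Hecw2 held neither motif. The start used for Ehd3 lies inside the longer GENCODE gene. Of all 32851 RefSeq promoters of this length, 35.1% held an ETS core and 9.99% AGATAA on either strand. Of the 107 genes called higher, 75 had a promoter in the table, and 46 of their 112 promoters (41.1%) held an ETS core, against 38.7% of the 4181 promoters of eligible genes. A match is only a description of these letters.

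**Figure D3:**
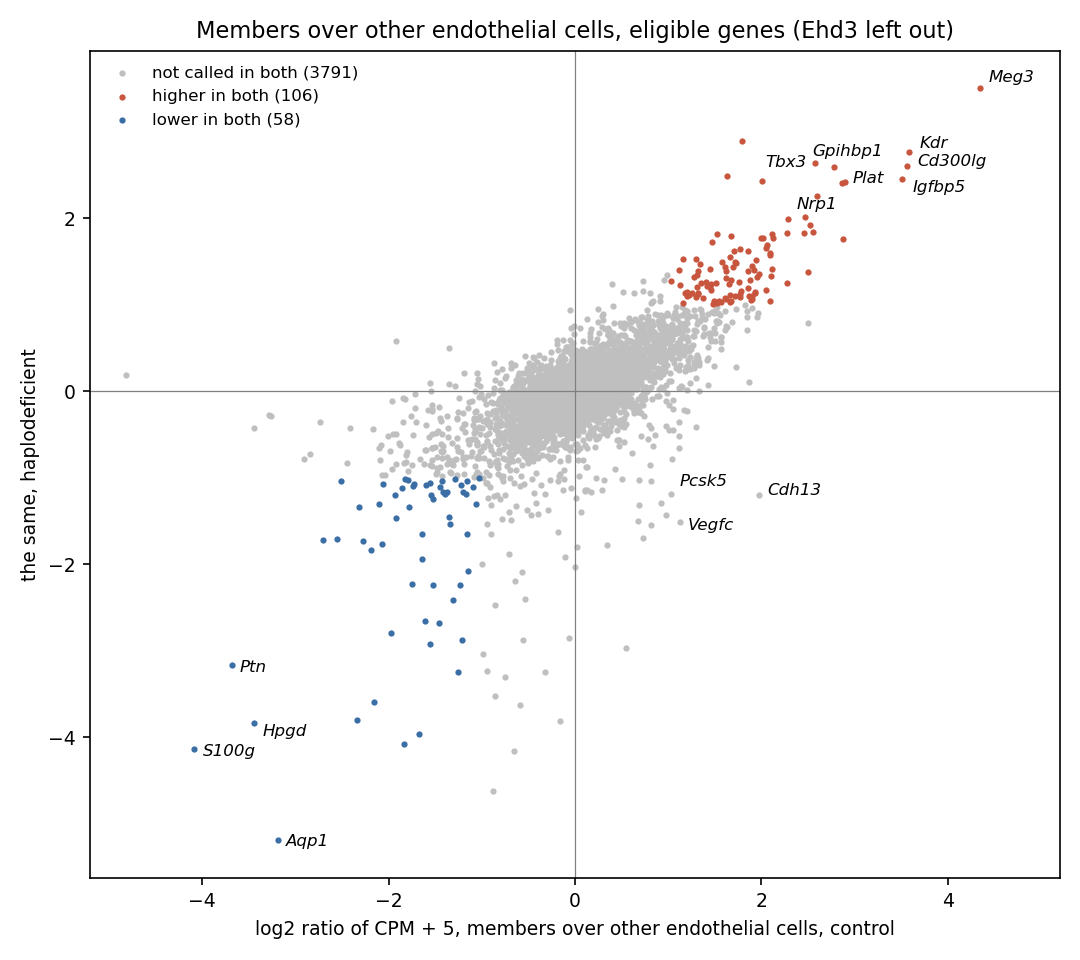
Log2 ratio of CPM + 5 of members over other endothelial cells in the control (x axis) and the haplodeficient library (y axis), for eligible genes without Ehd3. Red points (106) were called higher and blue points (58) lower in both libraries; Meg3 lies at 4.35 and 3.50, Kdr at 3.58 and 2.76, and Aqp1 at -3.19 and -5.19.

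Of the lipid handling list 3 of 4 eligible genes were called higher, where 2.7% of all eligible genes were. Gpihbp1, which carries lipoprotein lipase across capillary endothelium, stood at 370.3 against 49.9 CPM in the control and 611 against 96.9 in the haplodeficient library. The fatty-acid-binding proteins Fabp4 and Fabp5 had log2 ratios of 1.67 and 1.03, and of 1.30 and 1.53. Lpl, the lipase itself and one of the markers fixed for glomerular endothelium, was below the level minimum and went opposite ways, with 4 UMIs (log2 ratio -1.48) in control and 34 UMIs (1.77) in haplodeficient members. Of the capillary list named for the tubules' surroundings, Plpp3, a lipid phosphate phosphatase, and Igfbp5 were called higher in members. Igfbp5 stood at 1539.8 against 131 and 1694 against 305 CPM.

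Single genes of several other lists were called higher, where 2.7% of all eligible genes were. Among them were 1 of 5 eligible genes of the nitric oxide and endothelin list and 2 of 8 of the inflammation and adhesion list. No list's share was tested. Ednrb, the endothelin B receptor, was called higher at 1.77 and 1.65, while Edn1, the ligand, had log2 ratios of -0.71 and -1.39 and was not called. Efnb2, a ligand of Eph receptors, was called at 1.32 and 1.12, and Nid1, a basement membrane linker, at 1.86 and 1.20 as the only higher call among 14 eligible basement membrane genes. The chemokine genes Cx3cl1 (1.52 and 1.82) and Cxcl10 (1.28 and 1.33) were both called higher, and Cxcl10 came from 12 control and 33 haplodeficient members. Of 26 eligible interferon-response genes 1 was called higher, Rnf213, at 1.52 and 1.02. Among the genes of clotting and fibrinolysis Plat was the only one of 5 eligible genes called higher. Vwf, von Willebrand factor, had 3 and 2 UMIs in members, or 6.28 and 1.89 CPM, against 49.8 and 54.9 CPM in the other endothelial cells, and lay below the level minimum. The paralogs of Ehd3 did not share its pattern, since Ehd4 had log2 ratios of -0.17 and 0.06 and Ehd2 of 0.40 and 0.01.

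The 10 genes furthest below the other endothelial cells were S100g, Hpgd, Aqp1, Ptn, Slc13a1, Fut9, Slc27a2, Spink8, Cxcl2 and Cdh6. Aqp1, the water channel of the descending vasa recta and of proximal tubules, stood at 58.6 CPM (38.9 to 84.7) in control members against 576 elsewhere, and at 5.66 CPM (2.08 to 12.3) against 384 in the haplodeficient library. S100g, a calcium-binding protein of distal tubules, stood at 20.9 against 435 and 10.4 against 266 CPM. Slc13a1 and Slc27a2, both transporters known from proximal tubules, had 1 UMI each in haplodeficient members. At least 20 UMIs over the tubule lists were held by 161 of 483 (33.3%) other control and 106 of 790 (13.4%) other haplodeficient endothelial cells, against 6 of 40 (15%) and 10 of 99 (10.1%) members. With such cells left out on both sides, an alternative added after seeing the data, Slc27a2 turned to a log2 ratio of 0.46 in the control library. The part of this tubule RNA in the lower genes was otherwise not tested.

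Markers of other glomerular cells were present in members. Over the 11 podocyte genes control members summed to 557 CPM and haplodeficient members to 458 CPM, against 383 and 418 elsewhere, with 10 and 11 of the 11 genes detected. The 3 eligible podocyte genes had median log2 ratios of 0.93 and 0.65 over the other endothelial cells, none was called, and 6 of 40 and 13 of 99 members held 10 or more podocyte UMIs. Nphs1 (nephrin), a defining podocyte gene, was low but not absent, with 3 UMIs in 2 control and 9 in 3 haplodeficient members. The 11 mesangial and mural genes summed to 285 and 483 CPM in members and to 561 and 869.8 elsewhere, and the rule itself had set Pdgfrb to 0. An alternative without cells of 3 or more podocyte, leukocyte or mural UMIs gave fewer calls between the libraries in both directions. Its values are given in the last section. The part of these markers in the results was otherwise not tested. Leukocyte genes summed to 27.2 and 143 CPM, red-cell genes to 0 and 3.77, and fibroblast genes to 27.2 and 4.71 CPM.

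The most similar cells were the arterial (129 control, 208 haplodeficient) and peritubular capillary (88 and 251) endothelial cells, each set apart by its own genes among cells with under 2 Ehd3 UMIs. Kdr was at 899.6 CPM in control members, 180.4 in peritubular and 65.2 in arterial cells, and at 1096, 247 and 80.7 CPM in the haplodeficient library. The order of the 3 classes was the same for Igfbp5, at 1539.8, 333 and 68.6 CPM and 1694, 546 and 98.8 CPM. For Plat and Tbx3 arterial cells came second: Tbx3 was at 188, 57.8 and 5.77 CPM in control members, arterial and peritubular cells and at 203, 52.2 and 10.99 CPM in the haplodeficient ones. Pi16, a peptidase inhibitor, joined members (448 and 256 CPM) and arterial cells (252 and 235) against peritubular cells (11.5 and 20.4). Fabp4 joined members (1359.9 and 1483 CPM) and peritubular cells (1400.2 and 1501) against arterial cells (568 and 248). Cldn5, the tight-junction claudin of arteries, was at 372 and 42.4 CPM in members and 1100.1 and 993 in arterial cells. Since cells were classed by some of these vessels' genes and by Ehd3, these levels are descriptions.

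The targeted gene was examined first between the libraries. Egln3 (ENSMUSG00000035105, chromosome 12, minus strand, from 54178981 to 54203860) had 6 UMIs in 3 of 40 control members, or 12.6 CPM (4.61 to 27.3), and 16 UMIs in 11 of 99 haplodeficient members, or 15.1 CPM (8.62 to 24.5). Haplodeficient over control, this made a ratio of 1.202 (0.447 to 3.75) in members, and in the other endothelial cells it was 1.19 (0.867 to 1.63). The members' interval ran from under 0.5 to over 3, so a loss of 1 allele was not detectable in members at this depth. In the other endothelial cells the interval lay above 0.5, so the counted Egln3 RNA there was not halved between these 2 libraries. Whether the recombined allele still gives a counted transcript is not stated, and the gene gave no check of the labels. After thinning to 2000 UMIs, 1 of 40 control members (2.5% (0.0633 to 13.2)) and 1 of 96 haplodeficient members (1.04% (0.0264 to 5.67)) still held Egln3, against 7.5% and 11.1% unthinned, and no order is read from single cells. Egln1 and Egln2, the other prolyl hydroxylases, had ratios of 0.736 (0.458 to 1.201) and 1.12 (0.661 to 1.95), and Hif1a of 1.00 (0.685 to 1.48). Epas1, which encodes HIF-2 alpha, was at 636 in control and 469 CPM in haplodeficient members, a ratio of 0.737 (0.638 to 0.853), while in the other endothelial cells it was 1.09 (1.02 to 1.16). Arnt, the shared partner of both factors, had a ratio of 0.484 (0.309 to 0.759). Among members with 5 or more Ehd3 UMIs and under 20 tubule UMIs the log2 ratio was -0.06 for Epas1 and -1.56 for Arnt, the latter from 18 and 17 UMIs. Of 6 eligible HIF target genes 1 was above and 5 below a log2 ratio of 0, none was called, and their median was -0.30.

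Of 3922 eligible genes, 58 (1.48%) were called higher and 134 (3.42%) lower in haplodeficient than in control members, 192 (4.9%) in all. Over all of them the log2 ratio had a median of 0.01. Many of these calls rested on few cells. For 30 of the 134 lower genes 1 control member gave at least 50% of the control UMIs, and 35 were found in 10 or fewer control members. Among the 10 lowest genes were Kap, Gpx3, Aqp2, 4930469K13Rik, Acsm2, Spink1, Miox, Slc34a1 and C3, most of them known from tubules. Kap had 595 UMIs in control members, 90.9% of them in 1 cell, against 7 UMIs in haplodeficient members. Aqp2, the vasopressin-regulated water channel of collecting ducts, had 99 UMIs against 0, with 96.97% in 1 cell, and all 76 UMIs of 4930469K13Rik lay in 1 cell. The proximal tubule list summed to 3349.6 CPM in control and 815 CPM in haplodeficient members, and the distal list to 2017 and 714. Proximal genes ranged per member from 0 to 53520 CPM in the control and from 0 to 6750.1 CPM in the haplodeficient library. Free RNA, estimated from markers of other cell types, made up 5.08% of the control and 1.34% of the haplodeficient members' UMIs, and 13.97% and 28.9% of those of the other endothelial cells. The calls were also made with free RNA subtracted, as an alternative, but the part of free RNA in them was not tested.

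Among the 10 highest genes were Pigr, Ctnnd2, Clu, Lcn2, Rpl29, Lrg1, Sparcl1 and Zfas1. Pigr, the epithelial receptor of polymeric antibodies, had 138 UMIs in 8 of 99 haplodeficient members. Lcn2, a secreted marker of injured tubules, had 586 in 22, and Clu 1563 in 50 with 40.6% in 1 cell. In the narrower set of members with 5 or more Ehd3 UMIs and under 20 tubule UMIs (18 control, 51 haplodeficient), Pigr had no UMI in either library, and Clu was at 84.5 and 138 CPM. Lrg1, a secreted glycoprotein of activated endothelium, was at 29.3 and 130.1 CPM over all members but at 42.3 and 43.4 CPM in that narrower set. Sparcl1, a matricellular protein, was found in 51 haplodeficient members and remained called there, at 163 and 387 CPM. The narrower set gave 56 (1.52%) higher and 82 (2.22%) lower genes of 3693 eligible, of which 13 and 24 were among the calls over all members.

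Only 4 genes were called under each of 9 choices of cells: Rpl29 and Bst2, both higher, and mt-Co3 and mt-Nd3, both lower. These choices include a mean of per-cell CPM, which changes the weight of cells, and the alternatives chosen after seeing the data. They leave out the alternatives with other UMI, mitochondrial or endothelial limits. The same 4 genes were called under all 17 alternatives. Bst2 (ENSMUSG00000046718, chromosome 8 at 71534255 to 71537456, minus strand) encodes tetherin, an interferon-induced protein that holds budding viruses at the membrane. It was at 211 CPM (172 to 257) in control members, from 101 UMIs in 28 of 40 cells, and at 629 CPM (582 to 679) in haplodeficient members, from 667 UMIs in 89 of 99. After the same thinning, Bst2 was still present in 27.5% (14.6 to 43.9) of the control members and in 69.8% (59.6 to 78.7) of the haplodeficient ones, and the intervals did not overlap. The log2 ratio was 1.55, and it was 1.37 in the other endothelial cells. Rpl29, a ribosomal protein gene with near-identical processed copies that could share its reads, was at 117 and 549.7 CPM, a log2 ratio of 2.18 against 1.96 in the other endothelial cells. The mitochondrial genes mt-Co3 and mt-Nd3 had log2 ratios of -1.50 and -1.72 in members and -1.64 and -2.10 elsewhere. Mitochondrial UMIs made up a median of 3.43% of a control member's UMIs and 2.23% of a haplodeficient member's.

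Interferon-response genes were mostly higher in haplodeficient members. Of 25 eligible genes of the list 21 were above and 4 below a log2 ratio of 0. Their median was 0.42 against 0.01 for all eligible genes. Bst2 and Ifit2 were called higher, 2 of the 25, where 1.48% of all eligible genes were. Ifit2, which blocks translation of viral RNA, was at 37.7 CPM (22.3 to 59.5) and 96.2 CPM (78.4 to 117). Ifitm3, a membrane barrier to viral entry found in every member, was at 1508 CPM (1400.3 to 1623) and 2775 CPM (2676 to 2877), a ratio of 1.84 (1.695 to 1.999). Irf7, a transcription factor of the response, had a ratio of 1.95 (1.35 to 2.89), Ifit3 of 2.03 (1.44 to 2.93) and Isg15 of 1.34 (1.12 to 1.61). Below 1 were Rnf213, at 0.7803 (0.654 to 0.933), and Stat2, at 0.663 (0.482 to 0.916). The list's median in the other endothelial cells was 0.69, above that of members, and the difference between the 2 kinds of cells was not tested. In members with 5 or more Ehd3 UMIs and under 20 tubule UMIs Bst2 stood at 151 and 699 CPM and Ifit3 at 60.4 and 229 CPM. These and Irf7 (54.3 and 138) were the 3 called higher there of the list's 30 genes, eligible or not, where 1.52% of 3693 eligible genes were. Ifit2 lost its call (0.99, 7 and 45 UMIs), and Rsad2, Xaf1 and Ifit1 had log2 ratios of 0.20, 0.18 and 0.27. The list's median there was 0.32.

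Genes of antigen presentation lay on the same side. Of 10 eligible MHC class I genes 9 were above 0, with a median of 0.39 and no call. The immunoproteasome subunits Psmb8 and Psmb9 had ratios of 1.95 (1.54 to 2.51) and 2.04 (1.401 to 3.05), and B2m, the light chain of class I, of 1.34 (1.22 to 1.48). Of the MHC class II genes all 4 that were eligible were above 0, with a median of 1.11. H2-Aa and H2-Ab1 were called higher, where 1.48% of all eligible genes were. H2-Aa came from 16 UMIs in 7 control and 101 UMIs in 31 haplodeficient members, and neither gene was called in the narrower set, where H2-Aa had 1 and 31 UMIs. Psmb9 was at 115 and 149.99 CPM there. A single haplodeficient member gave 29.7% of the UMIs of Cd74, the invariant chain. Leukocyte marker genes summed to 27.2 and 143 CPM in the 2 libraries' members, and their part in the class II values was not tested. The adhesion genes Icam1, Icam2 and Vcam1 had ratios of 0.951 (0.737 to 1.24), 0.939 (0.753 to 1.18) and 0.706 (0.562 to 0.889). Vcam1 turned to the other side in the narrower set, at 24.2 and 49.3 CPM from 4 and 25 UMIs.

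None of the glomerular markers was called between the libraries over all members. Of 10 eligible genes of that list, Ehd3 left out, 4 were above and 6 below 0, and the median was -0.14. Tbx3 had a ratio of 1.08 (0.838 to 1.39), Hecw2 of 1.205 (1.002 to 1.45), Kdr of 1.22 (1.09 to 1.36) and Nrp1 of 0.985 (0.883 to 1.099), while Plat had 0.839 (0.764 to 0.922) and Meg3 0.516 (0.369 to 0.723). Igfbp5 was at 1.1 (1.01 to 1.201). In the narrower set 3 of the list's 14 genes, eligible or not, were called lower, where 2.22% of 3693 eligible genes were. They were Meg3 at 338 and 152 CPM, Sema5a at 242 and 116, and Cyp26b1, which degrades retinoic acid, at 217 and 80.9. Their control UMIs there came from 7, 11 and 10 of 18 members, with 33.9%, 32.5% and 25% of them in 1 cell. Log2 ratios in the same set were -0.87 for Gata5, -0.18 for Hecw2, -0.00 for Tbx3 and 0.06 for Kdr. In the other endothelial cells Kdr had a ratio of 2.22 (1.99 to 2.48) and Igfbp5 of 2.33 (2.15 to 2.53), a difference from members that was not tested. Of 15 eligible basement membrane genes 12 were above 0, with a median of 0.39. Col4a1 and Col4a2, the collagen IV chains of vessels, were at 508 and 858 CPM and at 291 and 491 CPM, ratios of 1.69 (1.46 to 1.95) and 1.69 (1.398 to 2.05), and Lamb1, a laminin chain, was called at 2.33 (1.48 to 3.82). Lamb1 rested on 23 UMIs in 7 control members, 34.8% of them in 1 cell, was called in 3 of the 9 choices of cells, and ranged over them from -1.18 to 1.94. Among members with 5 or more Ehd3 UMIs the list's median was 0.11.

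**Figure D4:**
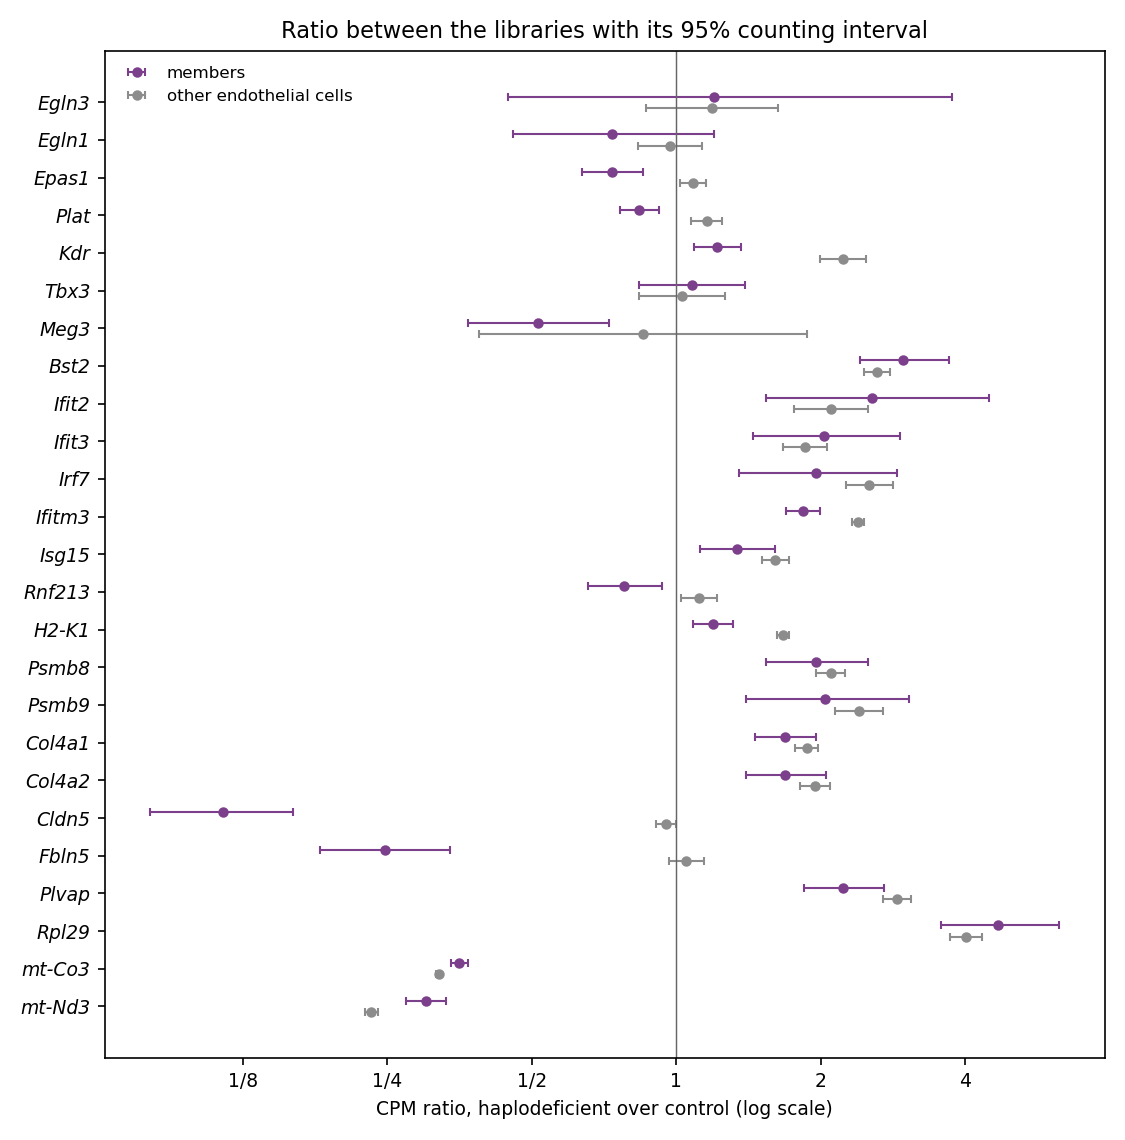
CPM ratio of haplodeficient over control (x axis, log scale) for 25 genes in members (purple) and in the other endothelial cells (grey), with exact conditional binomial 95% intervals for counting error. Bst2 lies at 2.98 in members and 2.62 in the other cells, Egln3 at 1.202 with an interval across 1, and Cldn5 at 0.114 in members and 0.952 in the other cells.

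Of the arteriole list 5 of 10 eligible genes were called lower in haplodeficient members, where 3.42% of all eligible genes were. All 10 were below 0, with a median of -1.03. The 5 were Cldn5, S100a4, Slc6a6, Fbln5 and Jag1. Cldn5 had 178 UMIs in 12 of 40 control members and 45 in 18 of 99 haplodeficient members, or 372 CPM (319.7 to 431) and 42.4 CPM (30.95 to 56.8). Fbln5, an elastic-fibre protein, had 120 UMIs in 9 and 66 in 20, and Jag1, a Notch ligand, 94 in 14 and 28 in 14. Slc6a6, the taurine transporter, was spread more widely, with 308 UMIs in 27 control and 279 in 60 haplodeficient members. Vegfc, the ligand of VEGFR3, had 111 UMIs in 6 control members, 33.3% of them in 1 cell, and 29 in 10 haplodeficient members. In members with 5 or more Ehd3 UMIs and under 20 tubule UMIs Cldn5 was at 54.3 and 39.5 CPM, Fbln5 at 30.2 and 37.5, and neither was called there. Slc6a6 (411 and 172 CPM) and S100a4 (223 and 98.7 CPM) stayed called lower, with 43 of 68 control Slc6a6 UMIs and all 37 control S100a4 UMIs in 1 cell each. Over the 9 choices of cells the log2 ratio ran from -1.44 to 1.43 for Slc6a6 and from -1.89 to 3.72 for S100a4. The list's median was -0.41 in that narrower set and 0.95 in members of 2000 to 10000 UMIs.

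Some endothelial regulators were called lower as well. Of 16 eligible transcription factor genes 6 were above and 10 below 0. Called lower were 3 of them, Mecom, Foxp1 and Gata2, where 3.42% of all eligible genes were. Mecom, a zinc-finger factor of arterial and stem cells, was at 954 CPM (868 to 1046) in control and 395 CPM (358 to 435) in haplodeficient members. Foxp1 was found in 32 of 40 and 67 of 99 members with a ratio of 0.467 (0.394 to 0.555), and Gata2 in 21 and 41 with 0.419 (0.294 to 0.595). Nos3, the endothelial nitric oxide synthase, was at 184 CPM (148 to 227) and 83.9 CPM (67.4 to 103), and its ratio in the other endothelial cells was 1.07 (0.9503 to 1.21). In members with 5 or more Ehd3 UMIs and under 20 tubule UMIs none of these 4 genes was called, with log2 ratios of -0.83 for Mecom, -0.83 for Foxp1, -0.96 for Gata2 and 0.16 for Nos3.

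Genes of the capillaries around tubules went the other way. All 5 eligible genes of that list were above 0 and 2 were called higher, Plvap and Rgcc, where 1.48% of all eligible genes were. Plvap had 132 UMIs in 14 control members and 653 in 46 haplodeficient members, or 276 CPM (231 to 327) and 616 CPM (569 to 665). In the narrower set it stood at 78.5 and 199 CPM and was called there too, but 1 cell gave 10 of the 13 control UMIs and 1 cell 47 of the 101 haplodeficient ones, and over the choices of cells its log2 ratio ran from -0.02 to 2.85. Rgcc lost its call there (0.85, 12 and 68 UMIs), and Igfbp5 and Plpp3 turned to -0.34 and -0.07. The ratio of Plvap in the other endothelial cells was 2.88 (2.697 to 3.08). Selp, the selectin of activated endothelium, was below the level minimum, with 3 UMIs in 2 control and 96 in 14 haplodeficient members, 39.6% of the latter in 1 cell. All 15 stress-response genes, which cell dissociation is known to raise, were below 0, with a median of -0.36 and 1 call, but the median was 0.13 with 1 Ehd3 UMI as the minimum and -0.0751 in the narrower set, where none was called. Cell-cycle genes summed to 109 and 189.5 CPM, and Mki67, the marker of dividing cells, had 0 UMIs in 40 control members, which limits the share of cells with a UMI, not of cells expressing the gene, to 8.81%, and 5 UMIs in 2 of 99 haplodeficient members. What share of any of these differences came from the Phd3 allele, from the make-up of the members or from single animals cannot be told apart with 1 library per group.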

How the data were processed

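Single-cell RNA of 2 libraries, 1 per group, was analysed. The deposited matrices hold UMI counts per gene and barcode that the authors made with Cell Ranger 4, per the file headers, on mm10, per the submitters' processing notes; the annotation release is not given in the sources used here. The libraries held 134190236 (control) and 114668145 UMIs. Of 32285 gene identifiers 99.8% matched GENCODE M21.

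Counts were summed over members and over other endothelial cells of each library and divided by their total (CPM). Intervals are 95% and cover counting error only: exact Poisson for CPM, Clopper-Pearson for shares, conditional binomial for CPM ratios. Log2 ratios are of CPM + 5, which understates low genes. No test was made, since each group is 1 library. Named genes are the 15 highest and 10 lowest called over other endothelial cells, the 10 highest and 10 lowest called between libraries, and genes of 36 lists (340 of 341 genes matched); a few genes that meet this rule are not reported here. The members and lists were chosen with earlier results of these data known. Doublets were scored with Scrublet (scanpy 1.11.5) and kept, except in an alternative. The call rule was tested on simulated counts with counting error only, which cannot show how it does where single cells carry a gene. Python 3.11.15, numpy 2.4.6, scipy 1.17.1 and pandas 2.3.3 were used.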

Additional observations from a re-analysis of the deposited data

Results flagged for a closer look

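Of 3956 eligible genes, 3 were called higher over the other endothelial cells in members of 1 library and lower in those of the other. Cdh13, T-cadherin, had a log2 ratio of 1.97 in the control (141 UMIs in 9 members) and -1.20 in the haplodeficient library (39 UMIs in 18 members). Pcsk5, a proprotein convertase, had 1.03 (132 UMIs in 16 members) and -1.19 (47 UMIs in 23 members). Vegfc had 1.12 (111 UMIs in 6 members, 33.3% of them in 1 cell) and -1.51 (29 UMIs in 10 members, 37.9% in 1 cell). Each library is the only one of its group, and the difference was not tested.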

How the results depend on the processing

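No paired analysis was possible because each group is 1 library, and no replicate could be left out. Alternatives with 5 or more Ehd3 UMIs, without cells of 20 or more tubule UMIs, or both, were chosen after seeing the data. The members share of endothelial cells was 7.65% (control) and 11.1% (haplodeficient), and became 19.9% and 24.6% with 1 Ehd3 UMI, 4.97% and 8.44% with 3, 3.82% and 6.19% with 5, 11.6% and 14.4% without cells of 3 or more podocyte, leukocyte or mural UMIs (foreign cells), 5.06% and 6.60% with both added limits, and 8.82% in the haplodeficient library when thinned. Against other endothelial cells, 107 higher genes became 36 with 1 Ehd3 UMI, 178 with 3, 194 with 5, 34 at 200 CPM and 199 with no minimum. The 58 lower genes became 16, 193, 191, 10 and 214 in turn, 160 without likely doublets, 124 without foreign cells, 37 with a pseudocount of 20 and 156 with both added limits. Between libraries, 58 higher genes became 29 without foreign cells, 32 with a pseudocount of 20, 11 at 200 CPM and 135 with no minimum. The 134 lower genes became 89 with 1 Ehd3 UMI, 45 without foreign cells, 59 in members of 2000 to 10000 UMIs, 38 at 200 CPM, 224 with no minimum, 82 with 5 Ehd3 UMIs and 82 with both limits. In members of 2000 to 10000 UMIs the Egln3 ratio was 0.372 (0.0630 to 2.54), and without foreign cells it gave no value. The gene list medians in members, with 1 Ehd3 UMI, were 0.68 for interferon, -0.36 for the arteriole list and 0.13 for stress. The arteriole list was at -0.33 without foreign cells, 0.95 at 2000 to 10000 UMIs and -0.41 with both limits, and stress at -0.0751 with both. The basement membrane list was at 0.0740 at 2000 to 10000 UMIs and 0.11 with 5 Ehd3 UMIs. The median of all eligible genes was -0.0150 with 3 Ehd3 UMIs, -0.0149 with 5, -0.00630 with a mitochondrial limit of 25%, -0.00565 with a mean of per-cell CPM, 0.0403 at 200 CPM and 0.0521 at 2000 to 10000 UMIs. Single genes that changed sign were Spink8 in the control (0.57) and Clu (-0.43) with 1 Ehd3 UMI, and without foreign cells Clu (-0.30), Ptn in the control (1.22) and Sparcl1 (-0.0023). They were also Cxcl2 in the haplodeficient library (2.08) with free RNA subtracted, Clu (-1.28), Slc27a2 in the control (0.46) and Ctnnd2 (-1.03) without tubule-rich cells, and Ctnnd2 (-1.69) with both limits. The cause was not tested.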
